A study of Mus musculus with 6 samples.

Results

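The array carries probes that are named by a stretch of the mouse genome and a strand, not by a gene. The probes described here are the non-control probes of that kind on an autosome other than chromosome 3, in the coordinates of mouse build mm9. The rule uses the name alone and no measured value, though it was set with earlier results of these data known. A total of 14709 of the 55681 distinct non-control probes met this rule, which is 26.4% of the array. They lay in 3182 intervals on 18 autosomes, with 7435 probes for the forward (F) strand and 7274 for the reverse (R) strand. Another 895 interval probes were on chromosome 3 and 577 on the X chromosome.

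The RNA came from dorsal skin wounds of male C57/BL6 mice, 3 wild type (WT) and 3 heterozygous for Foxo1 (FoxO1 +/-). Each mouse received 4 full-thickness wounds with a 4 mm biopsy punch, and the wound tissue was taken with a 6 mm punch on day 3. No group had unwounded skin, and the ages of the mice, the nature of the altered allele and any pooling of wounds are not given in the sources used here. RNA was labelled with Cy3 and hybridised to 1-colour Agilent arrays, 1 array per mouse as numbered in the titles, so a p-value here reflects the spread among 3 arrays of a genotype.

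Mammalian genomes are transcribed well beyond their protein-coding genes. Long intergenic non-coding RNAs are spliced, polyadenylated transcripts between genes, many of them found through chromatin marks of active promoters and transcribed bodies, and an interval found that way has no strand of its own. Interval probes on both strands of such a region can detect a transcript on either strand, or antisense and read-through RNA of a neighbouring gene. FoxO1 is a forkhead transcription factor that is restrained by growth factor and insulin signalling and that takes part in skin repair. Which genes lie near or within the intervals was not analysed here, because no annotation of mm9 was used, and no probe sequence is printed.

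The intervals ranged from 62 bp, at chr5:113769776-113769837, to 7128487 bp, at chr7:39351858-46480344, with a median of 7522 bp. The longest held 1 probe, which was not detected. A total of 1904 of the 3182 intervals overlapped another. Both strands were probed in 983 intervals, F alone in 1114 and R alone in 1085, and a strand carried a median of 3 and at most 10 probes. Interval lengths fell into 2 kinds. In 938 intervals, 29.5% of the total, the end lay an exact multiple of 25 bp from the start, and 71.4% of these were probed on both strands. Of the other 2244 intervals 13.9% were probed on both strands. The first kind had a median length of 17838 bp and the second one of 2768.5 bp, while 53.4% and 54.4% of their probes were detected by the rule below.

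Detection was read from the scanner software's flag for a spot well above the local background. A probe is called detected here when it was flagged so on every array of at least 1 genotype. By this rule 7934 interval probes, or 53.9%, were detected, against 81.0% of the 26392 probes designed to mRNA accessions, 52.5% of the chromosome 3 interval probes and 47.3% of the X interval probes. Of the 7934, 6552 were detected in both genotypes, 1325 by the WT arrays alone and 57 by the FoxO1 +/- arrays alone. Of the 6775 others, 5098 were flagged on no array. At least 1 probe was detected in 2632 of the 3182 intervals.

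On single arrays the flagged share of interval probes was 57.8%, 58.5% and 57.0% for WT replicates 1 to 3. For FoxO1 +/- replicates 1 to 3 it was 57.4%, 55.4% and 46.2%, so the last array stood apart. Without it, 458 probes were flagged on all 3 WT arrays and not on both other FoxO1 +/- arrays, and 323 the other way round. Its mRNA probes were flagged in 77.7% of cases, against 81.7% to 83.0% on the other 5 arrays. The 99th percentile of its negative control spots was 109 intensity units, against 7.19 to 19.0 elsewhere, and its 75th percentile of probe signal was 899 against 1095 to 1299. The part of this array in the genotype difference in detection was not tested, and values without it are given below.

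**Figure D1:**
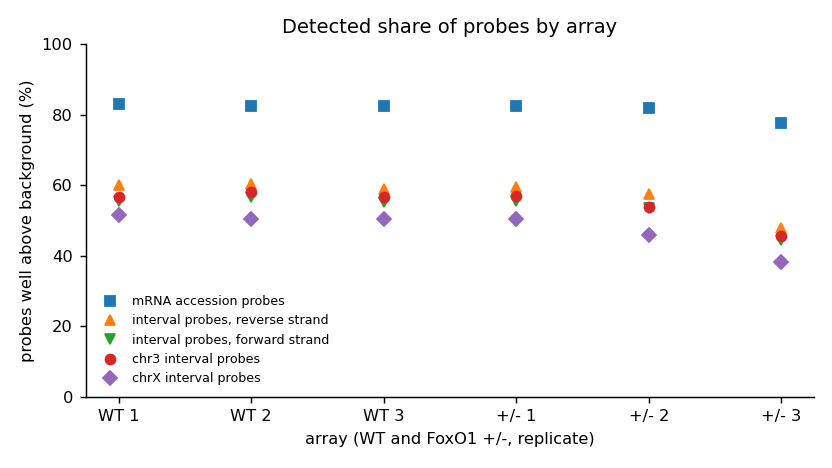
Share of probes flagged well above background on each of the 6 arrays, in percent, for mRNA accession probes and for interval probes (F and R outside chromosome 3, and chromosomes 3 and X). Each point is 1 array, and FoxO1 +/- replicate 3 is the lowest for every kind of probe, at 77.7% for mRNA probes and 44.6% and 48.0% for F and R interval probes.

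Series-wide checks were brief. The 2 Foxo1 probes were lower on every FoxO1 +/- array than on any WT array, with log2 differences of -0.48 and -0.89, with adjusted p of 0.547 and 0.190 (limma), so neither passed the threshold of 0.05. Defining markers of epidermal and wound-edge keratinocytes, fibroblasts, endothelium, neutrophils and macrophages were detected on all 6 arrays wherever they were measured. Of 4 markers of hepatocytes, which should be absent, 2 were also detected on all 6 arrays. The mean log2 level of the hepatocyte markers was -4.53 to -3.93, so the flag alone does not show expression at dim levels. The hair follicle markers had a mean log2 level of 1.00 on WT replicate 1 and of -4.53 to -3.51 on the other 5 arrays. Mean marker levels were higher on every FoxO1 +/- array than on any WT array for adipocytes (2.73 to 3.24 against 1.49 to 2.44), macrophages (5.45 to 5.56 against 5.30 to 5.34) and endothelium (1.34 to 1.49 against 1.20 to 1.29). They were lower on every FoxO1 +/- array for the sebaceous gland (1.94 to 2.07 against 2.36 to 2.94). In bulk tissue, fewer cells of a type and less RNA per cell cannot be told apart, and the part of these differences in any interval probe's value was not tested.

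By chromosome, the detected share ran from 47.3% on chromosome 13 to 65.8% on chromosome 19. Chromosome 17, at 60.0%, and chromosome 5, at 59.6%, followed chromosome 19, and chromosome 9, at 47.7%, was just above chromosome 13. R probes were detected more often than F probes on 15 of the 18 chromosomes. The widest gap was on chromosome 16, with 42.5% of 313 F probes and 65.0% of 266 R probes. Chromosomes 11 and 10 followed with gaps of 11.0 and 10.2 percentage points, and chromosomes 1, 8 and 18 ran the other way by at most 1.96 points. Probes of a strand share their interval, so these shares are descriptions over probes and carry no test. Length made little difference: 4 equal groups of probes by interval length were detected in 52.4%, 56.1%, 54.0% and 53.3% of cases, from short to long.

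**Figure D2:**
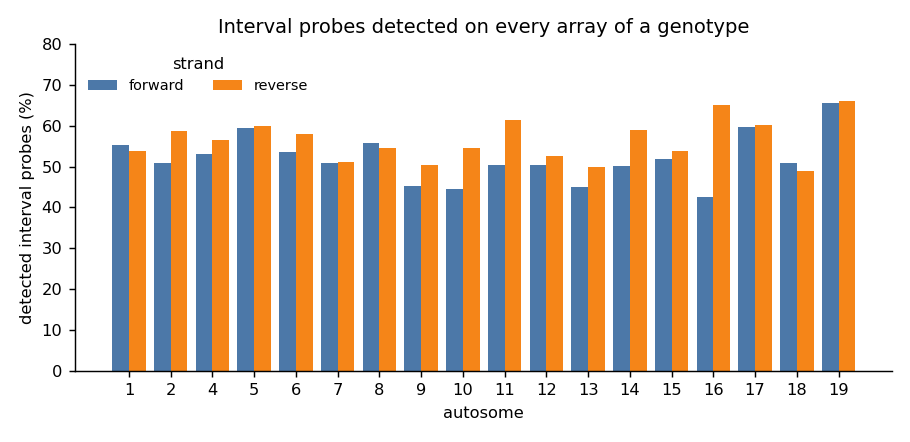
Percent of F and R interval probes detected on every array of at least 1 genotype, for the 18 autosomes other than chromosome 3. The R bar is the taller on 15 chromosomes, most clearly on chromosome 16 (42.5% for F and 65.0% for R).

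The surplus of R probes was present on every array, at 3.38 to 4.31 percentage points of the flagged share. It was seen in the intervals probed on both strands, where 50.3% of F and 57.3% of R probes were detected, and the array values differed by 6.09 to 7.65 points. In intervals with 1 probed strand the shares were 54.3% for F and 54.0% for R. Within the 983 intervals probed on both strands, more R than F probes were detected in 423, more F than R in 329, and equal numbers in 231. Of these intervals 750 (76.3%) had a detected probe on both strands, 9.16% on F alone, 10.9% on R alone and 3.66% on neither. In the 307 intervals with 5 probes on each strand, 258 had detected probes on both, with R ahead in 156 and F ahead in 95.

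Probes of the same interval and strand often differed in detection. Of 1604 strands with 3 probes, 458 had all of them detected, 843 had some and 303 had none. Of 912 strands with 5 probes the counts were 142, 697 and 73. Of 136 strands with 10 probes, 13 had all detected and 1 had none, so 122 of the 136 held detected and undetected probes side by side.

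A total of 103 intervals had a probe flagged on all 6 arrays on one strand while every probe of the opposite strand was flagged on none, 47 of them on F and 56 on R. The 4 with the brightest spots are given as spot values, since probes differ in how well they hybridise and the gap between 2 probes is not one between transcripts. At chr7:50509139-50526856 the R probe A_30_P01022987 read 14748, 15373 and 16263 intensity units in WT and 15236, 14723 and 13923 in FoxO1 +/- wounds, while both F probes were never flagged. At chr1:52507332-52514490 the R probe A_30_P01031145 read 9414 to 11407, against 1 F probe never flagged. At chr13:41337973-41379821, 8 of 10 R probes were detected and the brightest of them, A_30_P01018826, read 4602 to 7915, against 1 unflagged F probe. At chr10:97196521-97207471 the F probe A_30_P01020864 read 5141 to 7424 and its only R counterpart was never flagged. The genotypes differed by -0.09 to 0.14 on the log2 scale in these 4, with limma adjusted p of 0.865 to 0.940.

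The 6 brightest interval spots are likewise a rank of spots. They were A_30_P01031754 on the R strand of chr19:5801802-5802597, A_30_P01026458 on R of chr11:22681800-22707775, A_30_P01030669 on R of chr7:108209996-108216032, A_30_P01022075 on R of chr17:17481706-17482457, A_30_P01020570 on F of chr12:73838608-73862621 and A_30_P01026230 on F of chr2:31714946-31716972. The first of them read 286350, 324330 and 335960 units in WT and 310240, 208440 and 279060 in FoxO1 +/- wounds. Over all 6 probes the signals lay between 165650 and 335960, and no interval spot was saturated. Their log2 differences between genotypes were -0.04 to 0.20, with adjusted p of at least 0.737. The other 2 probes of the chr19 strand differed by -0.01 and 0.02.

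Levels below are log2 signals relative to the array's 75th percentile, and differences are FoxO1 +/- minus WT on that scale. Over the 7934 detected interval probes the median difference was 0.01, and it was 0.01 over all 37902 detected probes of the array. The question of the series, which transcripts differ between the genotypes in the wound, was put to all 37902 probes in 1 limma fit. Of all probes 9, or 0.0237%, passed an adjusted p of 0.05, 8 of them higher. Of the 9, 3 were interval probes, all higher in FoxO1 +/- wounds. At an adjusted p of 0.1 there were 7 interval probes, all higher, against 25 probes in all (0.066%), 21 of them higher. At an unadjusted p under 0.05, 649 interval probes (8.18%) differed, 403 higher and 246 lower, against 6.71% of all probes (3.97% higher and 2.74% lower) and 5.69% of mRNA probes. The groups did not overlap in 995 interval probes, 612 higher and 383 lower, which is 12.5% where 12.8% of all probes did so (8.28% higher and 4.57% lower).

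The share at an unadjusted p under 0.05 moved with signal. In the dimmest of 3 equal groups of interval probes by mean level it was 10.7%, in the middle group 7.22% and in the brightest 6.62%. mRNA probes in the same level ranges gave 12.9%, 7.70% and 4.43%. By direction, 129 dim interval probes were higher and 154 lower, against 130 and 61 in the middle group and 144 and 31 in the bright one. The detection rule let in 1325 interval probes through the WT arrays alone and 57 through the FoxO1 +/- arrays alone. It thus favoured lower probes among dim ones, and the balance of the dim group is not read as a result. With detection required on all 6 arrays, 380 of the 512 interval probes at an unadjusted p under 0.05 (limma) were higher. The same share over all probes under that filter is not given here. Under the main detection rule the balance moved with the array left out. It ran from 286 of 609 higher without WT replicate 1 to 561 of 757 higher without WT replicate 2. Among bright mRNA probes 422 were higher and 300 lower. The difference in this balance between interval and mRNA probes was not tested.

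The 3 called probes lay on 3 chromosomes. The first was A_30_P01031267, on the F strand of chr17:87483814-87493039. Its level was -4.34, -3.91 and -4.12 in WT and -2.21, -2.08 and -2.21 in FoxO1 +/- wounds. Every FoxO1 +/- array was well above every WT array, and the difference was 1.96 with an SE of 0.13 (3.89-fold, adjusted p 0.0227, limma, n = 3 per genotype). The same strand holds 5 probes, of which 4 were detected, and the other 3 detected probes differed by -0.29, -0.11 and 0.11. The 3 detected R probes of the interval differed by -0.11 to 0.13, so the difference was seen at 1 probe of the interval.

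A_30_P01031135, on the R strand of chr13:81773237-81783062, had levels of -5.83, -5.54 and -5.59 in WT and of -4.14, -4.07 and -4.13 in FoxO1 +/- wounds. The groups were separate and tight, and the difference was 1.54 with an SE of 0.10 (2.90-fold, adjusted p 0.0227, limma). It was the only detected probe of 7 on its strand, and the 4 detected F probes of 8 differed by -0.53 to 0.17. A_30_P01027126, on the F strand of chr12:112223388-112223755, had levels of -4.79, -4.42 and -4.96 in WT and of -2.84, -2.74 and -2.67 in FoxO1 +/- wounds. The difference was 1.98 with an SE of 0.15 (3.94-fold, adjusted p 0.0364, limma), and the other 2 probes of the strand were flagged on no array. All 3 called probes were dim, with raw signals of 20.7 to 76.5 units on the WT arrays.

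The calls depended on the background correction and on which arrays entered the fit. With normexp, another background correction, the differences of the 3 were 1.38, 0.73 and 1.24, in the order above, and the chr13 probe was no longer called (adjusted p 0.0589, limma), which left 2. With any array left out, the 3 differences stayed within 1.85 to 2.07, 1.45 to 1.60 and 1.86 to 2.13. No interval probe was called when WT replicate 1, WT replicate 3 or FoxO1 +/- replicate 1, 2 or 3 was left out, and 24 were called, these 3 among them, without WT replicate 2. All WT arrays and FoxO1 +/- replicate 1 lay in row 1 of the slide and FoxO1 +/- replicates 2 and 3 in row 2. With the row as a block, where FoxO1 +/- replicate 1 alone is set against the WT arrays, the differences were 1.92, 1.52 and 1.89 and none of these was called, while 3 other interval probes, all lower, were.

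Another 5 interval probes that were higher in FoxO1 +/- wounds had adjusted p of 0.0843 to 0.103 (limma), so none passed. At chr5:112205091-112240992 the R probe A_30_P01018132 had levels of -2.65 to -2.48 in WT and -1.71 to -1.60 in FoxO1 +/- wounds, a difference of 0.91 with an SE of 0.09, while 2 detected probes of the same strand differed by -0.01 and 0.02. At chr4:149383134-149451259 the R probe A_30_P01021917 had levels of -3.47 to -3.10 and -2.08 to -2.03, a difference of 1.19 with an SE of 0.12. This strand was the fullest of the set, with 8 of 10 probes detected. The other 7 differed by -0.09 to 0.91, with 0.64 and 0.91 at the highest and 0.08 or less at the rest, and none of them was called. At chr2:174943325-174966675 the F probe A_30_P01031705 differed by 1.44 (SE 0.15), and its same-strand probes by -0.30 and -0.28. Those same-strand probes were flagged on 4 and 5 arrays, so each was kept through 1 genotype alone. At chr11:104308622-104310041 the R probe A_30_P01027751 differed by 1.31 (SE 0.13), and its detected same-strand probe by -0.0018. The lone probe of chr17:26669587-26669907, A_30_P01017473 on F, had levels of -4.70 to -4.42 in WT and -3.65 to -3.49 in FoxO1 +/- wounds, a difference of 0.98 with an SE of 0.11. With normexp the differences of these 5 probes were 0.63 to 0.98, and none was called.

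No interval probe was called lower. The 8 lower probes with the smallest p among those at least 1.5-fold apart had adjusted p of 0.124 to 0.280 (limma). At chr8:20020266-20021248 the F probe A_30_P01022230 had levels of -3.68, -3.75 and -3.70 in WT and -4.74, -5.27 and -4.78 in FoxO1 +/- wounds. The difference was -1.22 with an SE of 0.15, and the other probe of the strand, flagged on 5 arrays, differed by -0.44. A_30_P01022230 was flagged on all 3 WT arrays but on 2 FoxO1 +/- arrays, so it was kept only through the genotype in which it was higher. At chr8:19783770-19784669 the R probe A_30_P01030607 differed by -0.86 (SE 0.13), and its 2 same-strand probes by -0.49 and -0.31. All 5 probes of these chromosome 8 intervals were lower in the mean, but A_30_P01022230 and A_30_P01030607 had been picked as lower. None of the 5 passed the test. At chr4:59306575-59317850 the R probe A_30_P01031944 differed by -0.77 (SE 0.15), with same-strand probes at -0.23 to 0.15. At chr1:52706748-52712402 the R probe A_30_P01026968 differed by -0.60 (SE 0.11), and it was likewise flagged on all 3 WT arrays but on 2 FoxO1 +/- arrays. The other detected probe of the strand differed by 1.32 (SE 0.53) and was flagged on 3 arrays, all of the same genotype. Each was kept through 1 genotype alone, so the pair is not read as opposite movements. The differences of these 4 lower probes were smaller with normexp, at -0.32 for A_30_P01022230, -0.57 for A_30_P01030607, -0.44 for A_30_P01031944 and -0.05 for A_30_P01026968.

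The last 4 lower probes were flagged on every WT array and on no FoxO1 +/- array, so only a bound that rests on the flag can be given. It sets the WT mean against the higher, on each FoxO1 +/- array, of the probe's own level and the lowest level of a probe well above background. By this measure the bound, with WT higher, was 1.61-fold at A_30_P01021214 (F, chr1:195327945-195336595), 1.12-fold at A_30_P01019782 (F, chr1:87343550-87362900) and 1.17-fold at A_30_P01033156 (R, chr16:21794415-21815365). For A_30_P01019100 (F, chr11:96173788-96174352) the bound did not exceed 1. With normexp the differences of these 4 probes turned to between 0.0014 and 0.05, so the bounds above 1 did not hold under that correction. Their WT signals were at most 47.9 units, while the negative controls of FoxO1 +/- replicate 3 reached 109 units at the 99th percentile. In all, 73 interval probes were flagged on every WT and no FoxO1 +/- array, with bounds of at most 1.61-fold by the same flag-based measure. The reverse held for 8 interval probes, with bounds of at most 2.89-fold.

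**Figure D3:**
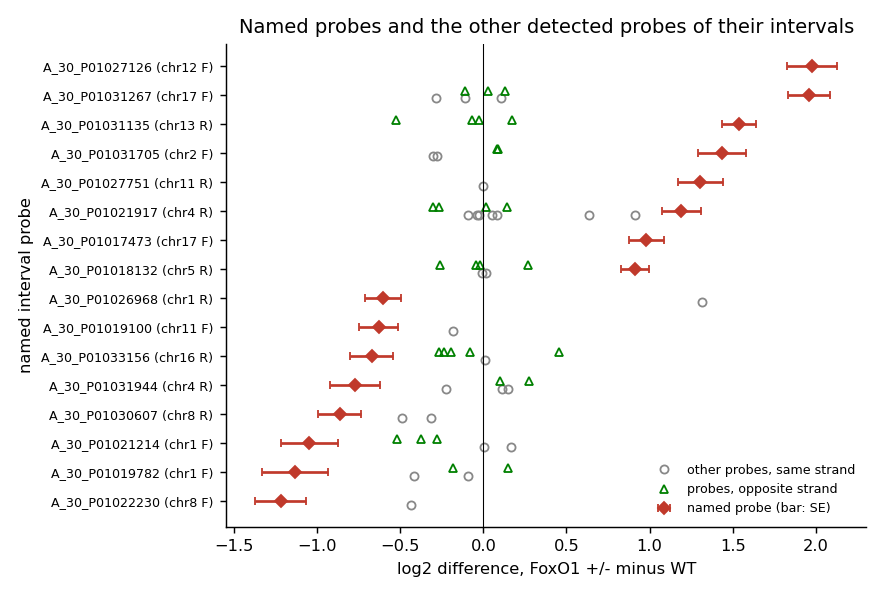
Log2 difference between genotypes (FoxO1 +/- minus WT) of 16 named interval probes with the smallest p in each direction (red, bars are 1 SE), with the other detected probes of the same strand (grey circles) and of the opposite strand (green triangles). The other probes lie mostly near 0, as for the chr17 probe at 1.96, whose same-strand probes lie at -0.29 to 0.11.

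Neighbouring probes were also examined for every interval probe that was at least 1.5-fold apart without overlap. There were 168 such probes higher and 74 lower, which is 2.12% and 0.933% of detected interval probes, where 1.55% and 0.905% of all probes met the rule in each direction. The 168 higher probes had 350 detected same-strand neighbours in their intervals, of which 175 were higher, with a median difference of 0.0004. For 8 of the 168 a neighbour also met the rule. Of the neighbours of the 74 lower probes 64 (59.8%) were lower, the median over them all was lower by 0.03 on the log2 scale, and none met the rule. Without FoxO1 +/- replicate 3 the counts were 180 of 356 for higher and 109 of 171 for lower probes.

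Over the 9524 pairs of detected probes of the same interval and strand, the log2 differences between genotypes had r = 0.087, and 59.7% of pairs shared a sign. Over 7600 pairs on opposite strands r was 0.0069, and 53.4% shared a sign. For comparison, 5961 pairs of mRNA probes of the same gene had r = 0.48 and 68.7%. Within a pair, the correlation of levels over the 6 arrays had a median of 0.40 on the same strand, 0.19 on opposite strands and 0.64 for mRNA probes of a gene. Pairs share arrays and probes, and interval probes were dimmer than mRNA probes, so these are descriptions. When detected probes of an interval and strand were averaged before the fit, 2 interval strands were called (6 of 28203 features in all, 0.0213%). Both had 1 detected probe, those at chr13:81773237-81783062 and chr12:112223388-112223755.

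Strands on which every detected probe moved together were sought after the values had been seen, so they carry no test. Of 1263 strands with at least 3 detected probes, 7 had every one of them apart between genotypes in the same direction, all 7 higher in FoxO1 +/- wounds. That is 0.554% of the strands. Over all genes, transcripts and interval strands of the array with at least 3 detected probes it was 21 of 2083 (1.01%), 20 of them higher. Of 2089 interval strands with at least 2 detected probes, 25 (1.20%) did so, 19 higher and 6 lower, against 2.74% of all such groups of probes. The share was lower among interval strands, and most groups leaned to higher values over the array too. Of the 7 interval strands, 3 lay within a stretch of chromosome 17, chr17:39960567-39992817.

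That stretch holds 6 overlapping interval strands with 20 probes, 10 on each strand, and all 20 were detected. All 20 were higher in FoxO1 +/- wounds in the mean, by 0.10 to 0.56 with a median of 0.44. In 18 the genotypes did not overlap, and 19 had an unadjusted p under 0.05. None was called, with adjusted p of 0.180 to 0.930 (limma). The mean level over the 20 probes was 2.65, 2.79 and 2.59 in WT wounds and 3.05, 3.05 and 3.18 in FoxO1 +/- wounds, so the lowest FoxO1 +/- array lay above the highest WT array. The median difference was 0.34 for the F and 0.49 for the R probes. With FoxO1 +/- replicate 1 alone, the array in the slide row of the WT arrays, all 20 were higher with a median of 0.42. Over all settings tried, the median stayed between 0.40 and 0.49. The 20 probes share a stretch of the genome and may share RNA or bases, so they count as 1 observation. What this stretch encodes was not analysed, and whether the probes read RNA from it or from like sequence elsewhere was not tested.

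**Figure D4:**
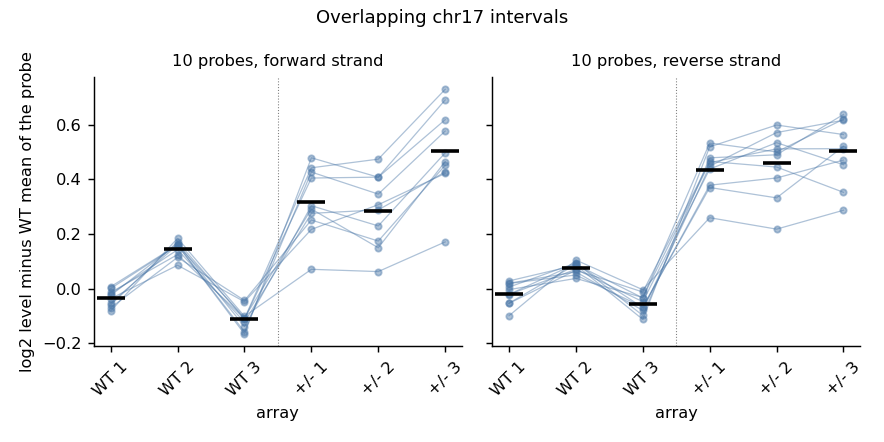
Log2 level of each of the 20 probes of chr17:39960567-39992817 on the 6 arrays, minus the probe's own WT mean, for the F (left) and R (right) strand. Lines join the values of a probe, black bars are array means, and the dotted line parts WT from FoxO1 +/- arrays; all FoxO1 +/- array means lie above all WT array means on both strands.

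The other 4 strands with all detected probes apart were 1597 to 7297 bp long. At chr5:35975265-35982561, R, 4 of 4 probes differed by 0.30 to 0.40, and their mean level was 1.11, 0.95 and 1.12 in WT and 1.29, 1.37 and 1.56 in FoxO1 +/- wounds. On the F strand of an interval of chromosome 18, 3 of 3 probes differed by 0.39 to 0.46. At chr12:4234392-4236672, F, 3 of 3 differed by 0.18 to 0.24, and at chr8:119092623-119094219, R, 3 of 3 by 0.15 to 0.21. No probe of these 4 strands was called (adjusted p of at least 0.296, limma).

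Comparing both strands of an interval within an array cancels the array's scaling. The F mean minus the R mean of the detected probes was taken on each array, and its change between genotypes was tested over the 810 intervals with both strands detected, 750 of them outside chromosome 3 and the X. In WT or FoxO1 +/- wounds alone the F minus R value mixes transcript and probe brightness, so only its change is read. Of the 750 intervals 1 was called (1 of 810, 0.123%), and 97 had an unadjusted p under 0.05 (12.9%, against 13.2% of the 810). The genotypes did not overlap in 142 (18.9% both of the 750 and of the 810). The change was toward F in 50 of the 97 and toward R in 47.

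The called interval was chr13:81773237-81783062, whose F minus R value was 2.52, 2.32 and 2.30 in WT and 0.72, 0.74 and 0.73 in FoxO1 +/- wounds. The change was -1.65 with an SE of 0.12 (adjusted p 0.0016, limma) and stayed at -1.69 to -1.58, with adjusted p of at most 0.0181, when any array was left out. Its R side is the called probe A_30_P01031135, so this restates that probe's difference against its F neighbours and is no second observation. The next 3 intervals did not pass. At chr10:116814196-116920696 the value went from 0.28, 0.26 and 0.41 to -0.50, -0.67 and -0.82 (change -0.98, SE 0.13, adjusted p 0.0519, limma). At chr17:88225376-88238756 it went from 0.29, 0.48 and -0.34 to 1.61, 2.21 and 2.78 (change 2.06, SE 0.33, adjusted p 0.0734, limma). At chr6:108157117-108162492 it went from -1.14, 0.38 and -1.64 to 1.99, 1.99 and 2.10 (change 2.83, SE 0.46, adjusted p 0.0734, limma). The genotypes did not overlap in any of the 3, and each F side was a single detected probe. That of the chr6 interval, A_30_P01032277, was flagged on 2 WT arrays and on all 3 FoxO1 +/- arrays. It was thus kept only through the genotype in which it was higher, and the change at chr6 is not read as a result.

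The 3 intervals with most detected probes give a view of well-covered regions. All 20 probes of chr19:53517903-53540753 were detected. Its mean R level was -2.83, -0.85 and -1.77 in WT and -1.78, -2.46 and -1.99 in FoxO1 +/- wounds, so WT replicate 2 was the highest and WT replicate 1 the lowest. The F means followed a like order, with -2.14 on WT replicate 2 and -3.23 on WT replicate 1. All 10 R probes were lower in the FoxO1 +/- mean, with log2 differences of -0.37 to -0.13, and the arrays' R means of the genotypes overlapped. At chr16:43623581-43642715, 18 of 20 probes were detected, and 9 of 10 F probes were higher, with a median of 0.23. Its F means overlapped, at -0.65 to -0.29 on the WT and -0.36 to -0.20 on the FoxO1 +/- arrays. Of its 8 detected R probes 6 were higher, with a median of 0.06. At chr8:119732348-119749198, also with 18 of 20, the medians were -0.04 on F and -0.03 on R. No probe of these 3 intervals was called (adjusted p of at least 0.572, limma).

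The 5 detected interval probes with the widest spread over the 6 arrays each departed on a single array. A_30_P01017643 (R, chr16:84702353-84710928) read 150 to 291 units on 5 arrays and 5.11 on FoxO1 +/- replicate 1. A_30_P01026934 (R, chr4:119133352-119134522) read 1358 on WT replicate 2 and 16.9 to 54.5 on the others. A_30_P01031449 (F, chr8:67213300-67271700) read 359 on the same array and 8.14 to 35.2 elsewhere. A_30_P01026433 (F, chr13:98281158-98285757) read 653 on FoxO1 +/- replicate 2 and 11.7 to 41.5 elsewhere, and A_30_P01028266 (F, chr17:21653676-21667959) read 455 on FoxO1 +/- replicate 3 and 27.5 to 38.9 elsewhere. None of the 5 was called between genotypes (adjusted p of at least 0.865, limma). With the slide row as a block A_30_P01017643 was called (-5.39, adjusted p 0.0451, limma), a value that sets FoxO1 +/- replicate 1, its low array, alone against the WT arrays.

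**Figure D5:**
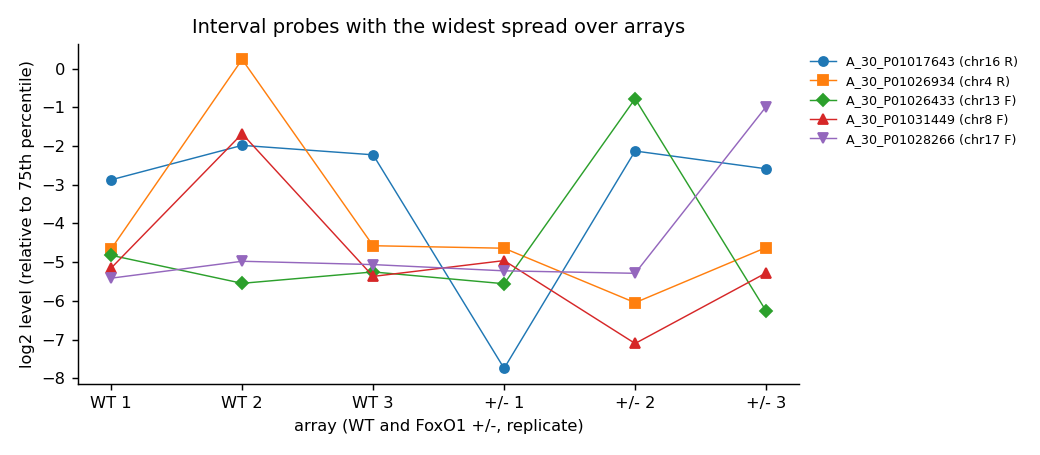
Log2 level, relative to the array's 75th percentile, of the 5 interval probes with the largest standard deviation over the 6 arrays; lines join the values of a probe. Each probe leaves its other values on 1 array, such as A_30_P01017643, which falls to -7.74 on FoxO1 +/- replicate 1.

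Departures in both directions were counted over all detected probes. At least 4-fold above each of the other 5 arrays lay 25 detected interval probes (0.315%) and 143 of all detected probes (0.377%). Of the 25, 14 were on FoxO1 +/- replicate 3, 6 on FoxO1 +/- replicate 2, 3 on WT replicate 2 and 2 on WT replicate 1. These 25 had 48 other detected probes on their interval strands, and 0 of the 48 were 4-fold above on the same array. At least 4-fold below the other 5 arrays lay 11 interval probes (0.139%), 7 of them on FoxO1 +/- replicate 2, and 35 of all detected probes (0.0923%).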

How the data were processed

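The deposited scanner files hold spot intensity on a linear scale, extracted by the authors with Agilent Feature Extraction 10.7.1.1 per the file headers, and 9.1 per the submitters' processing notes. The authors' value table, deposited as intensity too, matched them within 0.5%. The processed signal (background-subtracted, not scaled between arrays, per the file headers) was averaged over the unflagged spots of a probe, log2-transformed and set against the 75th percentile of each array's non-control probes. An offset was not added. Probes well above background on all 3 arrays of a genotype were fitted with limma 3.58.1 in R 4.3.3 (lmFit, eBayes). Benjamini-Hochberg adjustment ran over all 37902 of them, which include 7934 of the 14709 interval probes. Left out were 5 interval probes that lacked a value on some array, except in the fit that kept outlier-flagged spots. Array number limits the precision.

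Named probes were those called, the 8 higher and 8 lower with the smallest p among probes at least 1.5-fold apart without overlap, the 6 brightest, the 5 with the largest SD, the 4 intervals with the smallest p of the strand difference, the 4 brightest intervals detected on 1 strand, and the 3 with most detected probes. The strands that moved together and the chr17 stretch were chosen after their values were seen. The members and lists were chosen with earlier results of these data known. The fits were tested on simulated data. Alternatives were other background corrections, scalings, filters and blocks, leaving out each array, and averaging probes. The median of the spot signal stood in for its mean in normexp, which had an offset of 50.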

Additional observations from a re-analysis of the deposited data

How the results depend on the processing

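The count of 3 called interval probes (adjusted p of 0.05, limma) became 5 without a filter on dim probes, 1 of them shared, and ran from 0 to 24 when an array was left out. It was 1, and not one of the 3, when FoxO1 +/- replicate 3 was left out and detection was worked out anew, an alternative chosen after seeing the data. With the replicate number as a block it was 0 (529 at an unadjusted p under 0.05, against 649 without the block). Deviations of same-numbered arrays from their group means correlated at -0.25 to -0.11, and those of differently numbered arrays at -0.03 to 0.19. With 3 arrays per genotype this cannot decide whether the numbers pair the arrays. The sources used here do not say how independent experiments map to the arrays. The median difference of 0.0091 was 0.098 with normexp, where 930 of 979 interval probes at an unadjusted p under 0.05 were higher, and ran from -0.018 to 0.052 with an array left out. With normexp, 4 probes named as lower turned to 0.0014 (A_30_P01021214), 0.030 (A_30_P01019782), 0.029 (A_30_P01019100) and 0.053 (A_30_P01033156); the cause was not tested. Intervals with a called strand change numbered 11 with normexp, 7 when both strands had to be well above background on all 6 arrays, 0 with the replicate block, and 1 to 5 with an array left out. Detected interval probes numbered 7934, and 6552 to 9611 under other detection rules, within 1.5 times. Signal over background was low at the called probes: on FoxO1 +/- replicate 3, whose negative controls reached 109 units, A_30_P01031135 read 51.3 and the other 2 read 141 and 195.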
